A study of Mus musculus with 6 samples.

Results

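Prostaglandin E2 is made, moved, sensed and destroyed by a short chain of proteins, and 8 genes of that chain were followed here in mouse blood stem and progenitor cells: the transporter Slco2a1, the synthesis genes Ptgs1, Ptgs2, Ptges and Ptges3, the breakdown gene Hpgd, and the receptors Ptger2 and Ptger4. All probes bearing 1 of these gene names were taken, 13 of 55681 probes and 8 of 34821 gene names on the array. The genes were picked with genotype differences from these same arrays already known, and Slco2a1 was picked for its large difference. Their differences are therefore given as descriptions, with standard errors (SE) and without p-values.

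LSK cells are the bone marrow fraction that lacks lineage markers and carries Sca-1 and c-Kit; it holds the blood stem cells and early multipotent progenitors. They were sorted fresh from wild-type mice (samples 1, 3 and 5) and from NIKaly/aly mice (samples 2, 4 and 6), and total RNA of each sample was hybridised to a 1-colour Agilent mouse array. The aly allele gives a defective NIK, the Map3k14 product and the kinase at the head of the alternative NF-kB pathway, and the study asked what this does to gene expression in these cells. The labels name no treatment in either group. The labels state no age, sex or strain background, and do not say whether a sample is 1 mouse or a pool, or that samples came from separate mice, so the p-values speak only of how far these samples scatter, and that scatter may be technical. The aly animals lack normal NIK in every cell, not only in LSK cells.

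Arachidonic acid freed from membranes is turned by the cyclooxygenases, encoded by Ptgs1 and Ptgs2, into an unstable intermediate that prostaglandin E synthases convert to prostaglandin E2. The product leaves the cell, acts on G protein-coupled receptors, of which EP2 and EP4 raise cyclic AMP, and is taken up again by the transporter encoded by Slco2a1 for destruction by the dehydrogenase encoded by Hpgd. In bone marrow, prostaglandin E2 is known for acting on stem cells, where it promotes their number, survival and homing.

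A level below is the log2 of the processed signal above the array's own 75th percentile, so 0 marks that percentile, and a difference is the NIKaly/aly mean minus the wild-type mean on the same log2 scale with n = 3 per genotype. Levels of different probes are not set against each other, since probes differ in brightness for the same RNA. A probe is called well above background where the scanner software's flag says so. Between 33.1% and 45.6% of spots passed that flag on an array, and the 75th percentile of the processed signal ranged from 47.0 in wild type 1 to 225 in wild type 3. In the headers' quality summary, 2 arrays were put up for evaluation, those of wild type 1 and of NIKaly/aly 6. Samples 1 and 2 stood apart from the others: the mean level of 8 erythroblast markers was 2.93 in wild type 1 and 2.20 in NIKaly/aly 2, and between -1.97 and -0.38 in the other 4. Values without samples 1 and 2 are given for each of the 6 tested genes of the set. Map3k14 itself read 0.73, 2.54 and 2.06 in wild type 1, 3 and 5, against 1.60, 2.53 and 2.14 in NIKaly/aly 2, 4 and 6, with overlapping groups; a transcript level does not check a point mutation such as aly. Of the LSK markers, 9 of 11 were well above background on all 6 arrays, Kit and Ly6a (Sca-1) among them, and their mean level was 3.10 to 3.25 in wild type and 3.14 to 3.44 in NIKaly/aly. All 11 mature neutrophil markers were well above background on every array too.

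The probe sequences below belong to the transporter, cyclooxygenase and synthase readings, copied from the deposited array files and written 5′ to 3′. Each probe is 60 bases long; stretches of 30 bases are shown, and the dark Ptges probe is shown whole since it is set against the bright one. The first pair are the start of the only Slco2a1 probe and of the Ptgs2 probe, which is printed 10 times on each array. The next pair are the Ptges probes, of which the first never rose above background and the second did on every array. The last is a Ptges3 probe that is not the one used for the gene's level, shown because it holds the other form of the hexamer that stands in the bright Ptges probe. Capitals mark a poly(A) signal hexamer, ATTAAA or AATAAA, the motif that precedes the site where a transcript's tail is added.
Slco2a1, bases 1 to 30: gttcccggaagatcagctgtccccacaagt
Ptgs2, bases 1 to 30: tttttgaaaagtttgaagttagaacttagg
Ptges, dark probe, bases 1 to 60: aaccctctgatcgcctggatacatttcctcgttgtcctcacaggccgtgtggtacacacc
Ptges, bright probe, bases 31 to 60: agtcagccccaATTAAAtgctttcctttat
Ptges3, bases 21 to 50: gtgacttgactgaAATAAAagtgaatgtgt
The files place these probes on the mm9 build: Slco2a1 at chr9:102990100-102990159 on the plus strand, Ptgs2 at chr1:151954744-151954803 on the plus strand, the dark Ptges probe at chr2:30748214-30748273 and the bright one at chr2:30744995-30745054, both on the minus strand, and the Ptges3 probe at chr10:127514251-127514310 on the plus strand. The exon or untranslated region under each probe is not given here, since no annotation of that build was used. On the probe strand, AATAAA or ATTAAA stood in 3 of the 13 probes, the third being a Hpgd probe, and in 13.7% of all 55681 probes. On the opposite strand it stood in 1 of the 13 and in 6.14% of all probes. A match is a description of the letters and marks no proven site.

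**Figure D1:**
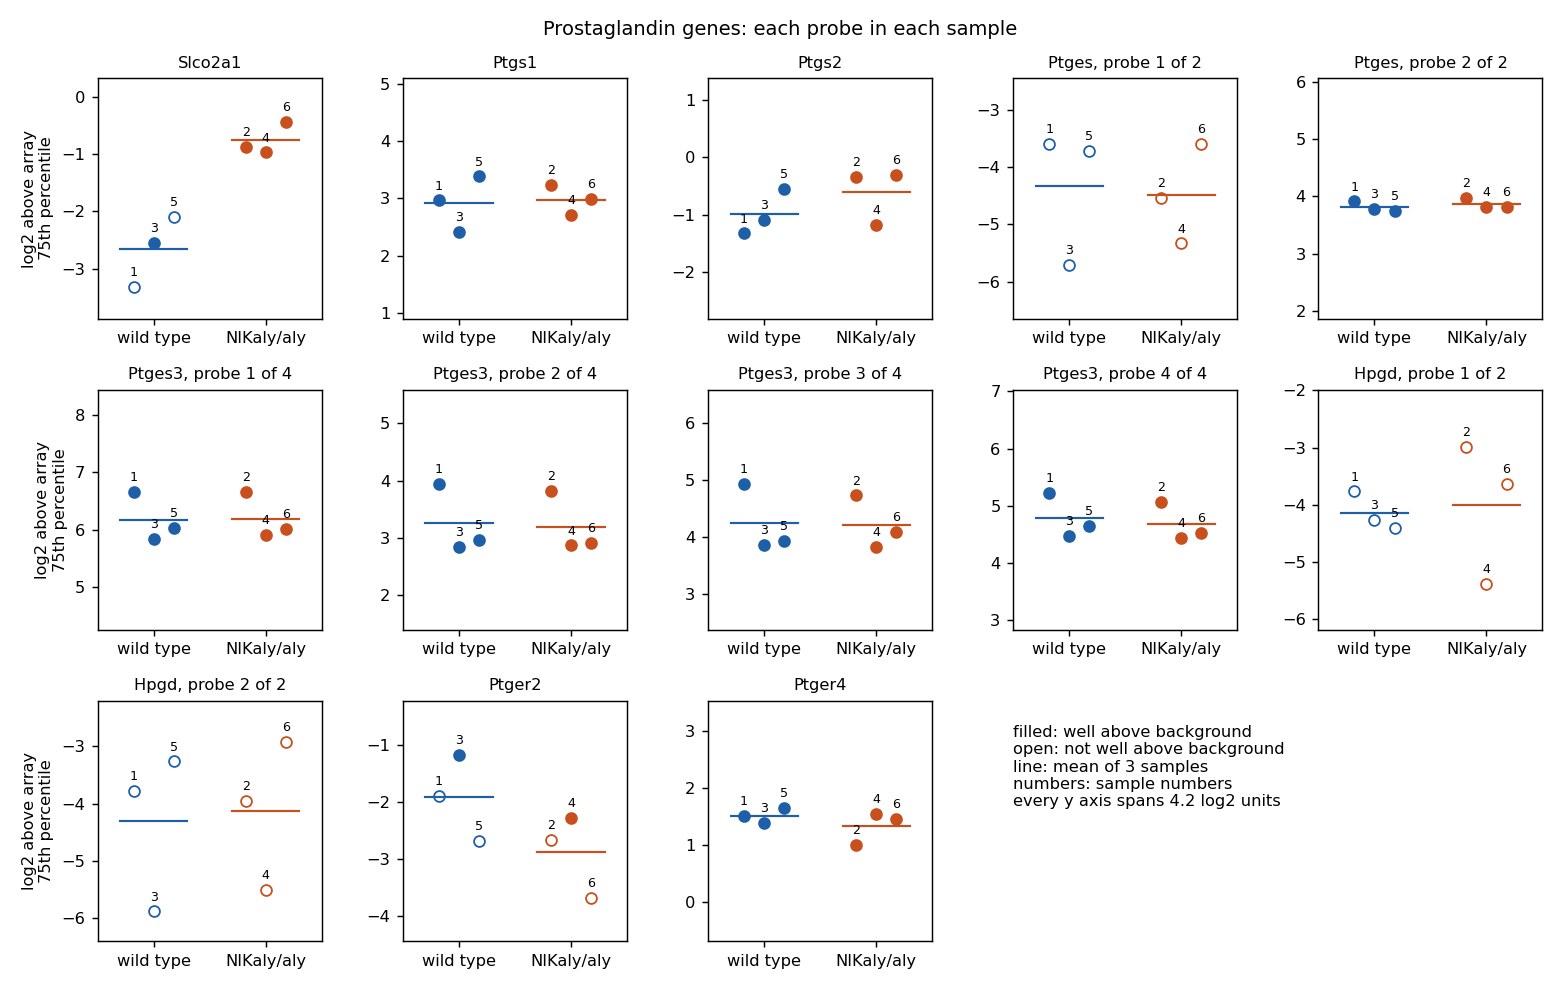
Level of each of the 13 probes in each sample, as log2 of the processed signal above the array's 75th percentile; points are samples with their numbers, lines are means of 3 samples, open points were not well above background, and every y axis spans the same length. The Slco2a1 groups are apart, with NIKaly/aly between -0.97 and -0.43 and wild type between -3.32 and -2.10, while the groups overlap for every other probe.

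Slco2a1 encodes the prostaglandin transporter, a membrane protein that carries prostaglandins into the cell. Its level was -3.32 in wild type 1, -2.56 in wild type 3 and -2.10 in wild type 5. It was -0.87 in NIKaly/aly 2, -0.97 in NIKaly/aly 4 and -0.43 in NIKaly/aly 6. Every NIKaly/aly sample lay above every wild-type sample. The gap between the nearest samples, 1.13, was wider than the spread of the NIKaly/aly samples but narrower than that of the wild-type samples. The means were -2.66 ± 0.62 (SD, n = 3) in wild type and -0.76 ± 0.29 (SD, n = 3) in NIKaly/aly, a difference of 1.90 ± 0.47 (SE), or 3.74-fold. This difference is what brought the gene into the set. Slco2a1 was the only one of the 6 tested genes of the set whose groups did not overlap, where 4.57% of all 15684 tested genes had groups that did not overlap, 2.68% with NIKaly/aly higher and 1.89% with it lower. It was also the only one at least 2-fold apart, as 2.07% of all tested genes were, 0.72% with NIKaly/aly higher. Nothing is read from these counts, since the choice used them.

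The Slco2a1 spot was dim, and much of the wild-type side lay at background. It was well above background in all 3 NIKaly/aly samples but in wild type only in sample 3. The processed signal with the scanner software's error was 4.70 ± 3.95 in wild type 1, 38.2 ± 5.82 in wild type 3 and 18.7 ± 4.74 in wild type 5. In NIKaly/aly it was 68.5 ± 8.77 in sample 2, 103 ± 11.5 in sample 4 and 37.7 ± 5.68 in sample 6. Before any scaling the groups thus overlapped, because wild type 3, the brightest array, read 38.2 and NIKaly/aly 6, among the dimmest, read 37.7. With each array set to its median, the lowest NIKaly/aly level was 2.87 and the highest wild-type level 1.57, and the groups were again apart. The same held for the 75th percentile of probes detected on all arrays, where the nearest levels were -4.87 and -5.59. It held too for normexp background correction with quantile normalization, where they were 6.90 and 6.42.

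The size of the Slco2a1 difference varied with the treatment of dim spots, the normalization and the samples kept. Raising each spot under the lowest signal well above background on its array to that signal moved only wild type 1, to -1.61, and the difference to 1.33 ± 0.38 (SE); this setting was chosen after the values were seen. With normexp and quantile normalization, which adds an offset before the log, the difference was 0.71 ± 0.16 (SE). It was 1.57 ± 0.44 (SE) without wild type 1, 1.63 ± 0.43 (SE) without samples 1 and 2, and 2.02 ± 0.65 (SE) within the 4 samples of the first slide row. NIKaly/aly was higher in all 18 alternatives that could be computed. These reuse the same arrays, and the gene was picked for this difference, so nothing is read from that count. With 1 wild-type and 3 NIKaly/aly arrays well above background, the gene passed the filter of 3 arrays only through NIKaly/aly. No alternative brought the gene under an adjusted p of 0.05 over all tested genes in limma, and it drops out where a probe must be well above background on all 6 arrays.

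**Figure D2:**
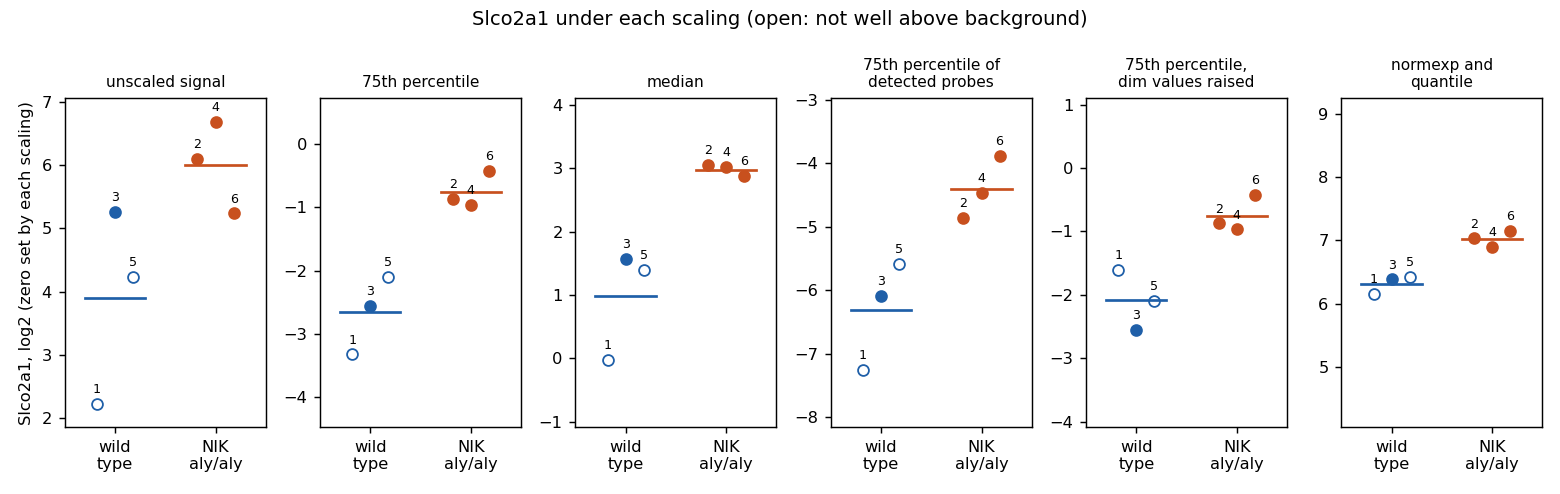
Slco2a1 level in each sample under 6 ways of scaling the arrays, as log2 with the zero set by each scaling; points are samples with their numbers, lines are means of 3 samples and open points were not well above background. The groups overlap in the unscaled signal, 38.2 in wild type 3 against 37.7 in NIKaly/aly 6, and are apart in the other 5 panels, by least with normexp and quantile normalization, where the highest wild-type level was 6.42 and the lowest NIKaly/aly level 6.90.

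Slco2a1 is also known from cells other than LSK cells, such as endothelial cells, so markers of other cell types are set beside it. In bulk samples, fewer cells of a type and less RNA per cell cannot be told apart. The mean level of the 10 endothelial markers was -1.74 to -1.04 in wild type and -1.90 to -1.26 in NIKaly/aly. Of its 7 tested genes 2 were higher and 5 lower in NIKaly/aly, and the largest positive difference was that of Emcn, an endothelial sialomucin, at 0.45 ± 0.33 (SE, n = 3) with overlapping groups. Among them, 4 of 10 were well above background on all 6 arrays, while Cdh5 and Lyve1, which mark vascular and lymphatic endothelium, were so on none. The 9 megakaryocyte and platelet markers averaged 0.05 to 1.08 in wild type and -0.16 to 0.71 in NIKaly/aly. Of its 8 tested genes 4 were higher and 4 lower in NIKaly/aly, with a median of -0.007. Gp1ba had its largest positive difference, at 0.60 ± 0.58 (SE, n = 3) with overlapping groups. Vwf of that list was lower in NIKaly/aly with groups that did not overlap, at -0.64 ± 0.26 (SE, n = 3). Its unadjusted p in limma was 0.0361 and its adjusted p 0.99998. The 12 macrophage and dendritic cell markers averaged -2.77 to -0.99 in wild type and -3.24 to -1.50 in NIKaly/aly. All 6 tested ones were lower in NIKaly/aly. Without NIKaly/aly 4, 3 of them were higher and 3 lower, with a median of -0.008. Csf1r and Itgax of that list had groups that did not overlap, at -1.17 ± 0.33 and -1.01 ± 0.38 (SE, n = 3). Their unadjusted p-values in limma were 0.00745 and 0.0270, and both adjusted p-values were 0.99998. Itgax was well above background in 2 of 3 NIKaly/aly samples. Mrc1, Cd163, Mertk and Siglec1 of that list were well above background on no array. The averages above count such undetected markers too, and the levels of these follow array brightness. Cd163 read -5.86 in wild type 3, the brightest array, and -3.77 in wild type 1. A list wholly lower in NIKaly/aly was not particular to macrophages. All 8 tested B cell, 11 mature neutrophil, 6 erythroblast and 4 stromal markers were lower too. LSK markers had 7 higher and 3 lower. Mast cell and basophil markers had 1 and 5, and T and NK cell markers 2 and 3. Without NIKaly/aly 4, 10 of 11 neutrophil, 3 of 8 B cell, 4 of 6 erythroblast and 0 of 4 stromal markers were higher. Procr, a surface receptor enriched on blood stem cells, moved with Slco2a1: its level was 0.78 ± 0.28 (SE, n = 3) higher in NIKaly/aly, and 0.63 higher without samples 1 and 2, with groups that did not overlap, at an unadjusted p of 0.0229 and an adjusted p of 0.99998 in limma. Of all tested genes, 4.57% had groups that did not overlap and 1.33% an unadjusted p under 0.05 in limma. The part of these cell types, or of Procr, in the Slco2a1 difference was not tested.

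The cyclooxygenases showed no separation of the genotypes. Ptgs1 encodes COX-1, the form made constitutively in many tissues, and its probe was well above background on every array. Its level was 2.97, 2.41 and 3.39 in wild type 1, 3 and 5, against 3.24, 2.71 and 2.99 in NIKaly/aly 2, 4 and 6. All NIKaly/aly values lay inside the wild-type range. The difference was 0.06 ± 0.33 (SE), and it ran from -0.20 without wild type 3 to 0.29 without wild type 5. Without samples 1 and 2 it was -0.05.

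Ptgs2 encodes COX-2, the form induced by inflammatory signals, and NF-kB is a known inducer of it. Its mean level was -1.33, -1.09 and -0.55 in wild type 1, 3 and 5. In NIKaly/aly 2, 4 and 6 it was -0.34, -1.18 and -0.31. Samples 2 and 6 were higher than every wild-type sample, but NIKaly/aly 4 was lower than wild type 3 and 5, so the groups overlapped. The difference was 0.38 ± 0.40 (SE), 0.07 without samples 1 and 2 and -0.10 with array weights, which favour samples 3 and 4.

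The 10 repeated Ptgs2 spots give the scatter between spots of 1 hybridisation, which holds no error of labelling, hybridisation or scaling. Their SD ranged from 0.07 in NIKaly/aly 2 to 0.27 in wild type 1, where 7 of the 10 spots were well above background. On each of the other 5 arrays all 10 were. The SD of the 6 array means was 0.45. The spots of NIKaly/aly 4, from -1.47 to -0.94, lay wholly below those of NIKaly/aly 2, from -0.47 to -0.25, although both have the same genotype.

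**Figure D3:**
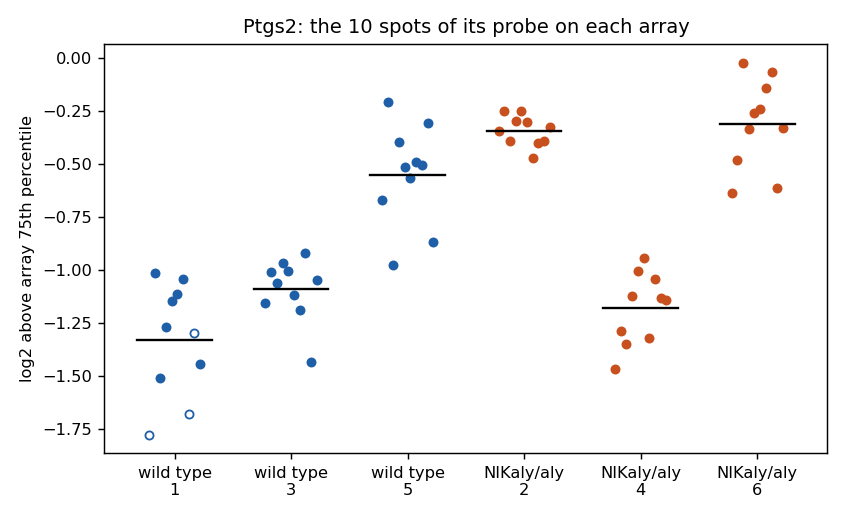
Level of each of the 10 Ptgs2 spots on each array, as log2 of the processed signal above the array's 75th percentile; lines are array means and open points were not well above background. NIKaly/aly 2 and 6 lie highest with means of -0.34 and -0.31, while NIKaly/aly 4, at -1.18, lies among the wild-type samples.

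Ptges encodes the microsomal prostaglandin E synthase, the inducible enzyme for the last step. Its bright probe read 3.91, 3.79 and 3.75 in wild type 1, 3 and 5, against 3.98, 3.82 and 3.82 in NIKaly/aly 2, 4 and 6. The groups overlapped, and on this scale the 6 samples read nearly alike. The range over the 6 samples was 0.23, against a median range of 1.21 over all tested genes. That narrow range belongs to this scaling: it was 0.79 with median scaling, against a median range of 1.56, and 0.45 with normexp and quantile normalization, against 0.72. With the 75th percentile of probes detected on all arrays it was 0.39, against 1.09. The difference was 0.05 ± 0.25 (SE) and without samples 1 and 2 it was 0.05. It was 0.15 with median scaling.

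The dark Ptges probe begins 3219 bases from the bright one and was well above background on 0 of 6 arrays. It read -3.59, -5.71 and -3.72 in wild type 1, 3 and 5, against -4.54, -5.33 and -3.60 in NIKaly/aly 2, 4 and 6. Both probes carry the same transcript accession in the files, so of the pair only the bright one, which holds the ATTAAA hexamer, detected Ptges RNA. Why the other is dark was not tested.

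Ptges3 encodes the cytosolic prostaglandin E synthase, better known as p23, a co-chaperone of Hsp90. Its 4 probes span 1087 bases and were well above background on all 6 arrays. The brightest, which was used for the gene, read 6.66, 5.84 and 6.02 in wild type 1, 3 and 5, against 6.66, 5.90 and 6.01 in NIKaly/aly 2, 4 and 6. On this scale samples 1 and 2 were highest on each of the 4 probes, and each genotype held 1 of these samples. The difference was 0.02 ± 0.37 (SE), and 0.02 without samples 1 and 2, while the other probes gave -0.05, -0.02 and -0.10. It ran from -0.22 without NIKaly/aly 2 to 0.26 without wild type 1.

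Hpgd encodes 15-hydroxyprostaglandin dehydrogenase, the enzyme that inactivates prostaglandin E2. Neither of its probes, 458 bases apart on chromosome 8, was well above background on any array, so it was not tested. Their levels lay between -5.88 and -2.92. At the sensitivity of these arrays Hpgd was not detected in either genotype, and no difference is given.

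EP2, encoded by Ptger2, was read near background. Its level was -1.90, -1.18 and -2.69 in wild type 1, 3 and 5, against -2.66, -2.28 and -3.68 in NIKaly/aly 2, 4 and 6. The groups overlapped, since NIKaly/aly 2 and 4 lay above wild type 5. The probe was well above background only in wild type 3 and NIKaly/aly 4, the arrays with the highest 75th percentiles, and was not tested. The processed signals were 12.6, 99.1 and 12.4 in the wild-type samples, and 19.8, 41.4 and 3.95 in the NIKaly/aly samples, and the means differed by -0.95. Only 2 of 6 samples were detected behind that difference.

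EP4, encoded by Ptger4, was detected on every array. Its level was 1.51, 1.38 and 1.64 in wild type 1, 3 and 5, against 1.003, 1.55 and 1.45 in NIKaly/aly 2, 4 and 6. The groups overlapped and NIKaly/aly 2 was the lowest sample. The difference was -0.18 ± 0.27 (SE), and -0.01 without samples 1 and 2. With array weights it was 0.04.

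**Figure D4:**
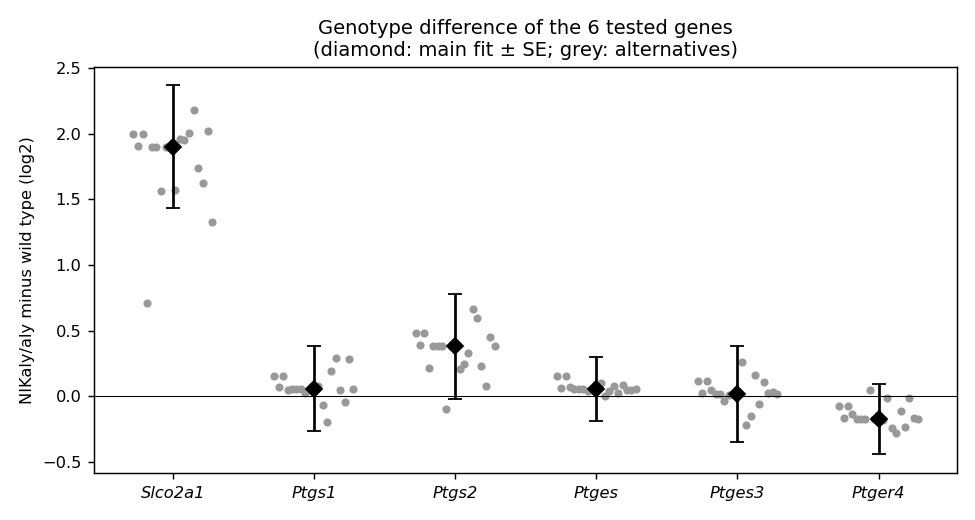
Difference between NIKaly/aly and wild type for the 6 tested genes, in log2; diamonds with bars are the value and SE of the fit used in the text (n = 3 per genotype) and grey points are the alternatives. Slco2a1 lies at 1.90 with alternatives from 0.71 to 2.18, while the bars of Ptgs1, Ptgs2, Ptges, Ptges3 and Ptger4 all reach across 0.

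The genes of the set did not follow a common pattern over the 6 arrays. All correlations here are Pearson's r over 6 arrays, which share the slide and the scaling, and they are descriptions. Ptges and Ptges3 ran together with r = 0.89, both being highest in samples 1 and 2. Ptges and Ptger4 ran in opposite directions with r = -0.77. These Ptges patterns, and the genes named below as most like Ptges, belong to this scaling. With the 75th percentile of probes detected on all arrays, Ptges was lowest in samples 1 and 2, at -0.02 in each. The others read 0.25 to 0.37. With normexp and quantile normalization it was again lowest there, at 10.73 and 10.77 against 11.07 to 11.18. Ptger4 was also lowest in those samples under both. Ptges3 stayed highest in them with the 75th percentile of probes detected on all arrays. With normexp and quantile normalization Ptges3 was lowest in wild type 1, at 12.81, and highest in wild type 5, at 12.96. The genes named below as most like Ptges3 were sought under the 1 scaling used in the text. Correlations were not computed under those scalings. Slco2a1 and Ptgs2 gave r = 0.68, and Slco2a1 gave 0.19 with Ptgs1, 0.06 with Ptges, -0.21 with Ptges3 and -0.33 with Ptger4. Among all tested genes, those most like Slco2a1 were Serpinb6b (r = 0.98), Lypd6b (r = 0.98) and 5530601H04Rik (r = 0.96). Lypd6b read -0.91, -0.68 and -0.63 in the wild-type samples, and 0.03, -0.0046 and 0.05 in the NIKaly/aly samples. Its groups were apart as those of Slco2a1 were. A gene found by its likeness to Slco2a1 is bound to share much of that split, so nothing is read from it. Those most like Ptgs2 were Sp140 (r = 0.98), Gzmb (r = 0.98) and Usp46 (r = 0.97). Those most like Ptgs1 were Stk39 (r = 0.96), Jmjd6 (r = 0.96) and F5 (r = 0.96). For Ptges they were Dtd1 (r = 0.998), Nek2 (r = 0.996) and Maged2 (r = 0.996), for Ptges3 Ncoa4 (r = 0.998), Gltpd1 (now Cptp, r = 0.997) and Tmem216 (r = 0.997), and for Ptger4 Rlim (r = 0.99), Crxos1 (now Crxos, r = 0.99) and Cypt4 (r = 0.98). Such values rest on 6 arrays each and were searched for among 15684 genes.

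The genes around this chain were taken from 9 lists with 95 names, of which 94 were on the array and 66 were tested. In limma, 0 of the 66 passed an adjusted p of 0.05 and 0 had an unadjusted p under 0.05; over all 15684 genes the counts were 0 (0%) and 208 (1.33%), and the smallest adjusted p was 0.99998. NIKaly/aly was higher for 32 and lower for 34, with a median difference of -0.01, as over all tested genes, where the median was -0.01 and the middle of the distribution ran from -0.17 to 0.15. Groups did not overlap for 3 of the 66, against 4.57% of all tested genes. The number of arrays limits the precision of all these differences.

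Upstream of the cyclooxygenases, 5 of 9 phospholipase A2 genes were tested, 1 higher and 4 lower, with a median of -0.18. The higher one was Pla2g4a, the cytosolic phospholipase that frees arachidonic acid. Pla2g4a read 2.37, 2.05 and 2.15 in the wild-type samples, and 3.02, 2.48 and 2.53 in the NIKaly/aly samples, groups that did not overlap, with a difference of 0.49 ± 0.27 (SE, n = 3). Its relative Pla2g4b also had groups that did not overlap, in the other direction, at -0.40 ± 0.27 (SE, n = 3); it is named here because of that count. Of the other prostanoid synthases 7 of 8 were tested, 3 higher and 4 lower, with a median of -0.01. Ptgds, the prostaglandin D synthase with the smallest p of that list, differed by 0.35 ± 0.46 (SE, n = 3).

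The list of prostanoid breakdown and export genes stood higher in NIKaly/aly for all 5 tested genes, with a median of 0.24, but none passed the test. Abcc4, the export pump MRP4 that carries prostaglandins out of the cell, read 1.07, 1.40 and 1.05 in the wild-type samples, and 1.42, 1.61 and 1.52 in the NIKaly/aly samples. These Abcc4 groups did not overlap, though wild type 3 and NIKaly/aly 2 almost met, and the difference was 0.34 ± 0.25 (SE, n = 3). The others were Cbr3 at 0.27, Zadh2 at 0.24, Ptgr1 at 0.17 and Ptgr2 at 0.14. All 5 were higher under each scaling; the count fell to 3 of 5 without NIKaly/aly 2 or without wild type 3.

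Among the other prostanoid receptors, Ptger3 (EP3) differed by 0.13, Ptgir (the prostacyclin receptor) by -0.05 and Tbxa2r (the thromboxane receptor) by -0.02. Ptger1, Ptgdr and Ptgfr were well above background on no array, and Ptgdr2 on 1. Ptgfrn, which is on that list but is no prostanoid receptor itself, was well above background on no array. Of the receptors for prostaglandin E2, EP3 and EP4 were thus the ones detected on all 6 arrays. Of the 14 other Slco transporters, relatives of Slco2a1, 3 were tested: Slco2b1 differed by 0.38, Slco4a1 by -0.10 and Slco3a1 by -0.07. The other 11 were well above background on no array.

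In the neighbouring leukotriene and lipoxygenase branch, 4 of 10 tested genes were higher and 6 lower, with a median of -0.12. Cysltr2, a receptor for cysteinyl leukotrienes, had the largest positive difference of the 9 lists. It read -3.71, -0.98 and -1.49 in wild type 1, 3 and 5, against -1.11, -0.42 and -0.52 in NIKaly/aly 2, 4 and 6. Wild type 3 lay above NIKaly/aly 2, so the groups overlapped, and wild type 1 was far the lowest. The probe was well above background in 2 wild-type and 3 NIKaly/aly samples. Wild type 1 lay below -1.61, the lowest level well above background on its array. The difference thus rests in part on a reading at background, and it ran from 0.55 to 1.92 over the alternatives. The Cysltr2 difference was 1.38 ± 0.70 (SE, n = 3) and 0.77 without samples 1 and 2; its adjusted p in limma was 0.99998.

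Downstream of EP2 and EP4, the cyclic AMP effectors were split, with 7 of 15 tested genes higher, 8 lower and a median of -0.01. Rapgef3, the cyclic AMP sensor EPAC1, differed by -0.41 ± 0.27 (SE, n = 3). Among transcripts that cyclic AMP induces, 9 of 11 were higher and 2 lower, with a median of 0.20, and none passed the test. Crem, which encodes a cyclic AMP-responsive transcription factor, had the smallest p, at 0.81 ± 0.39 (SE, n = 3) and 0.61 without samples 1 and 2. It read -1.20, -0.94 and -0.72 in wild type 1, 3 and 5, against -0.0029, -0.79 and 0.35 in NIKaly/aly 2, 4 and 6, and the groups overlapped because NIKaly/aly 4 lay below wild type 5. The lean of this list depended on the samples kept. Without NIKaly/aly 6, 5 were higher and 6 lower, with a median of -0.02. Without wild type 3, 6 were higher and 5 lower, with a median of 0.08. Without wild type 1, 7 were higher and 4 lower, with a median of 0.04. Without samples 1 and 2 all 11 were higher, with a median of 0.35. Of all 15684 tested genes, 7611 were higher in NIKaly/aly in the fit used. Of the genes reported to respond to prostaglandin E2 in stem cells, 1 of 7 was higher and 6 lower, with a median of -0.15; without NIKaly/aly 4 the split was 4 higher and 3 lower. Bcl2l1, which encodes the survival protein BCL-XL, differed by -0.34 ± 0.35 (SE, n = 3).

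**Figure D5:**
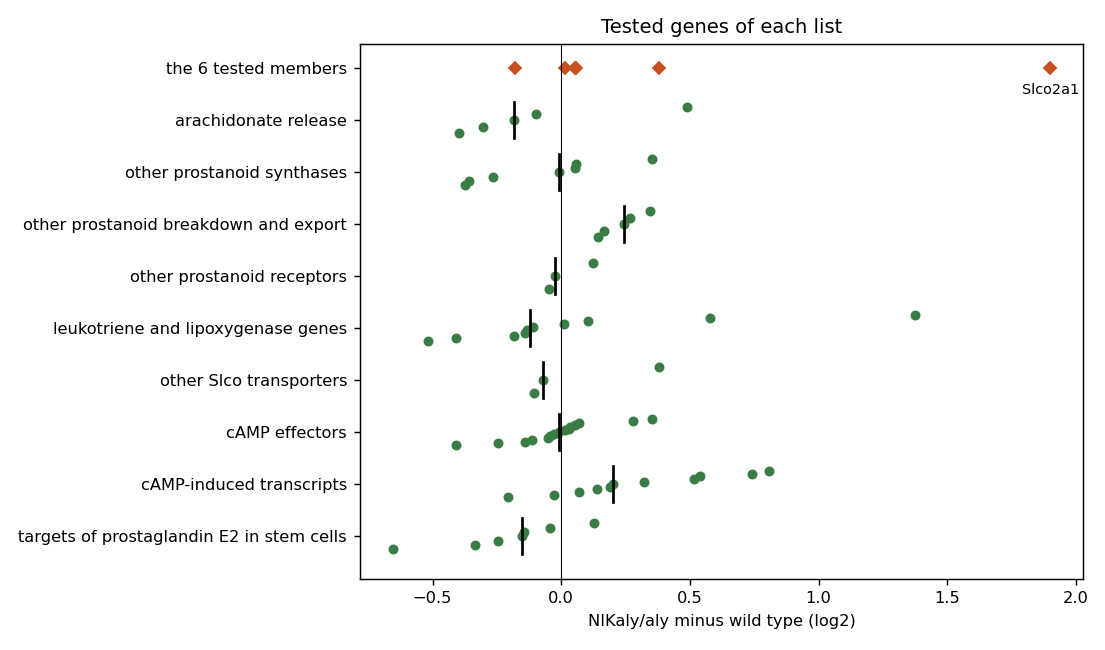
Difference between NIKaly/aly and wild type, in log2, for each tested gene of the 8-gene set (diamonds) and of the 9 lists around it (points, set apart vertically only for legibility); short bars are list medians. Slco2a1 lies furthest right at 1.90 and Cysltr2 next at 1.38. For both, the wild-type mean holds readings that were not well above background. The list medians lie between -0.18 and 0.24.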

How the data were processed

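LSK cells of 3 wild-type and 3 NIKaly/aly samples were measured on 6 arrays of 1 slide. Per the file headers, the authors read spot intensity from the scans in Agilent Feature Extraction, version 10.7.3.1, and probe positions are those of mm9. The processed signal they deposited has the background subtracted, and a surrogate stands in for low values. The authors' deposited series table holds a ratio, the processed signal over the array's median, and served as an alternative. Here, control and outlier-marked spots were left out, log2 signals were set against the array's 75th percentile, taken over its 59305 spots that are no controls, and spots of 1 probe were averaged. Tested probes were well above background (in at least 50% of their spots) on 3 of 6 arrays; of several probes for a gene the one with the highest mean was kept, leaving 15684 genes. The genotype test was limma's (version 3.58.1, R 4.3.3: lmFit, eBayes with an intensity trend, 4 residual degrees of freedom, two-sided, Benjamini-Hochberg at 0.05), with genotype as the only term.

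The 8 genes, the pathway and marker lists and the alternatives were chosen with earlier results of these data known. Named genes are the 8, the 3 tested genes most correlated with each of them, and from each pathway list the gene with the smallest p; other list genes, marker genes included, were named after their values were seen. Names are those of the files, updated through a RefSeq table (27509 probes matched by accession, 3549 by symbol, 404 by synonym, 24219 not matched).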

Additional observations from a re-analysis of the deposited data

How the results depend on the processing

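In limma, 0 genes passed an adjusted p of 0.05 in the fit used. The count was 10 with median scaling and 10 with the authors' deposited table, which is the same scaling, 5 with array weights, 2 with no filter on dim probes and 2 with pairs of consecutive samples as a block; it was 0 to 1 when each sample was left out in turn (1 without wild type 3) and 0 under the other alternatives run. None of the 66 pathway genes and none of the 6 tested genes of the set passed under any alternative, and leaving out each sample gave 0 to 0 pathway genes. Unadjusted p-values under 0.05 numbered 208, from 92 in slide row 1 alone to 1153 with the pair block, where 9 of the 66 pathway genes had one. The genotypes share no sample number in the labels, so the labels give no pairing; the pair block is a choice made with earlier results known. Leaving out each sample moved Slco2a1 between 1.57 and 2.18, Ptgs1 between -0.20 and 0.29, Ptgs2 between 0.21 and 0.66, Ptges between 0.00074 and 0.10, Ptges3 between -0.22 and 0.26 and Ptger4 between -0.28 and -0.01. Slco2a1 shrank to 0.71 with normexp and quantile normalization, and the cause was not tested. Spots near background limit Slco2a1 and Cysltr2 in wild type, and Hpgd and Ptger2 in both genotypes.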
